A study of Mus musculus with 8 samples.

Results

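The TRAF family (tumour necrosis factor receptor-associated factors) comprises the adaptor genes *Traf1* to *Traf7*, which were taken by symbol from the deposited table of gene counts. All 7 were found among the 54658 genes of the table, and all 7 passed the filter on low counts (a CPM, the count scaled by the size of its library, above 1 in 4 or more of the 8 samples), as did 14404 genes in all. RNA-Seq had been performed on primary articular chondrocytes, the cells of joint cartilage, taken at the age of 3 weeks from femoral heads of wild-type mice. Cells were cultured and treated with IL-1β, a proinflammatory cytokine, at 1 ng/mL for 24 h (n = 4) or with vehicle (n = 4). The comparison asked how the chondrocyte transcriptome responded to IL-1β. The sources do not say whether the 4 samples of a group came from separate animals or cultures, so the p-values refer to the spread between these samples, which may be technical.

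TRAF proteins sit on the inner side of receptors that lack enzyme activity of their own and pass the signal on by building ubiquitin chains and recruiting kinases. TRAF6 is the member that serves the IL-1 receptor: it is engaged by MyD88 and the IRAK kinases and activates the kinase TAK1, which leads to NF-κB and MAP kinases. TRAF2 and TRAF3, together with the cIAP ubiquitin ligases, keep the kinase NIK low and thereby restrain the non-canonical branch of NF-κB, and TRAF1 and TRAF2 form mixed complexes below TNF receptors.

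The total counts per sample were 10992355 to 17104351 in the IL-1β group and 13970959 to 17456063 in the vehicle group. Chondrocyte markers were expressed in every sample, and all 8 of the listed markers were lower with IL-1β, with a summed level of 3596 to 3965 CPM against 14287 to 14839 CPM in vehicle. *Col2a1*, the collagen of cartilage matrix, was still at 2853 ± 117 CPM in the IL-1β group (SD, n = 4). Of 9 leukocyte and macrophage markers, 3 were abundant enough to be tested, and the summed level of the list was 30.0 to 33.6 CPM with IL-1β and 14.8 to 16.8 CPM in vehicle. *Cd68* and *Cd14*, which rose, made up most of that sum, *Lyz2* fell, and *Cd3e* had no count in any sample and the mean level of *Ptprc*, the pan-leukocyte marker CD45, was 0.149 CPM with IL-1β and 0.107 CPM in vehicle. The 4 endothelial markers summed to 0.651 to 1.25 CPM and 0.725 to 1.00 CPM, respectively. Of the fibroblast markers, 3 of 4 rose (sum 2030 to 2146 CPM against 865 to 916 CPM, most of it the lubricin gene *Prg4*). The paper used Prg4 staining of knee sections to judge cartilage, so this sum is not a measure of fibroblasts alone. The remaining marker, *Thy1*, was too low to be tested, at 0.176 CPM with IL-1β and 0.435 CPM in vehicle. The 3 osteoblast markers fell (sum 25.9 to 31.5 CPM against 84.2 to 95.2 CPM). The part of these cell type markers in the results below was not tested, and in bulk RNA fewer cells of a type and less RNA per cell cannot be told apart.

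The response of the TRAF genes to IL-1β was uneven. *Traf1*, *Traf2*, *Traf3* and *Traf7* rose, *Traf4* fell, and *Traf5* and *Traf6* did not pass the test. Thus 5 of the 7 genes changed (edgeR's quasi-likelihood test, Benjamini-Hochberg adjusted p under 0.05), where 40.2% of all genes tested did. By direction, 4 of 7 were higher against 20.4% of all genes, and 1 of 7 was lower against 19.8%. *Traf1* alone was a differentially expressed gene (DEG), with an adjusted p under 0.05 and a change of more than 2-fold. DEGs were 5.21% of all genes tested, of which 2.86% were higher and 2.35% were lower. The 4 IL-1β and 4 vehicle samples did not overlap for the 5 changed genes, and such a separation was found for 36.8% of all genes.

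**Figure D1:**
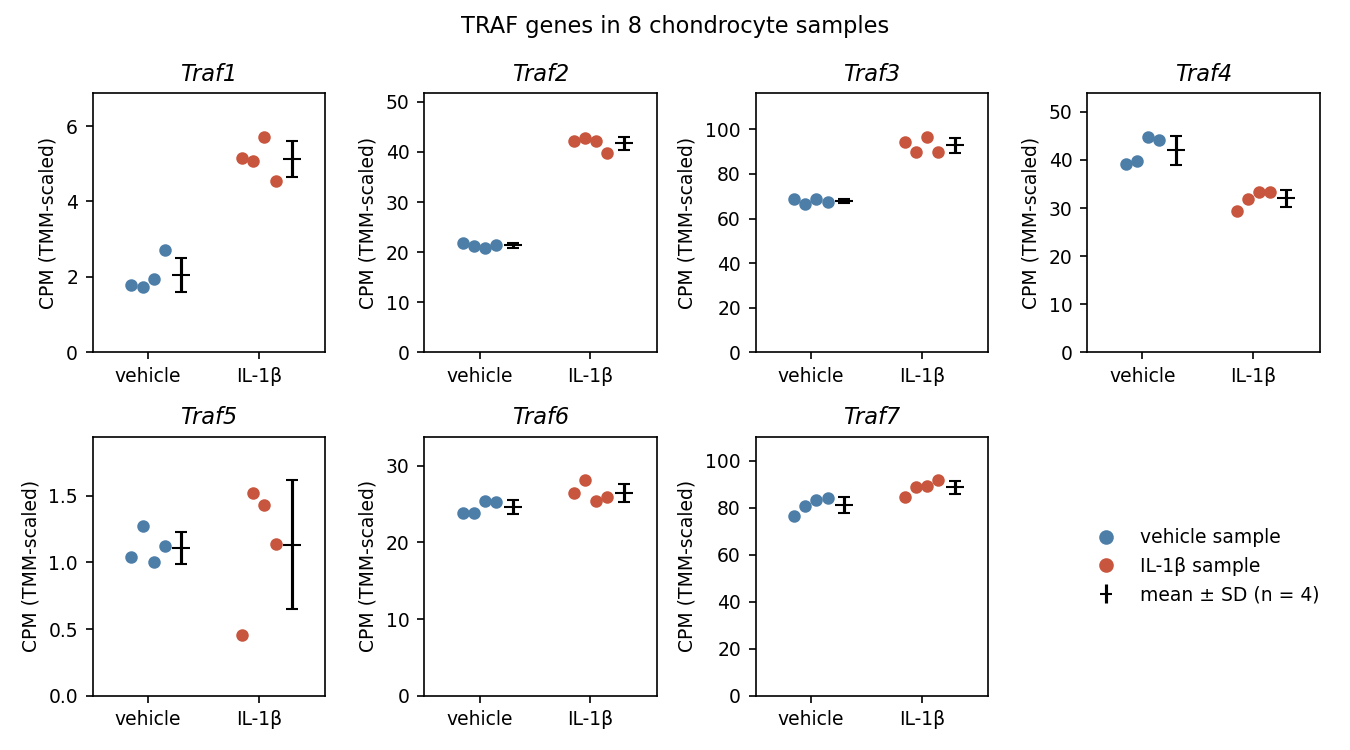
Level of each TRAF gene in CPM (y axis, linear, from 0, scaled by TMM) in the 4 vehicle and 4 IL-1β samples, with the mean ± SD beside the points. The groups are apart for *Traf1*, *Traf2*, *Traf3*, *Traf4* and *Traf7* and overlap for *Traf5* and *Traf6*.

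*Traf1* (ENSMUSG00000026875.14, GRCm38 chr2:34941750-34961772, minus strand) encodes the family member without a RING domain, so that it has no ubiquitin ligase activity of its own and acts through partners. Its level was 1.79, 1.74, 1.93 and 2.70 CPM in the 4 vehicle samples and 5.15, 5.06, 5.72 and 4.55 CPM in the 4 IL-1β samples. The 2 groups were apart, and vehicle replicate 4 was the highest of its group. The means were 2.04 ± 0.448 CPM and 5.12 ± 0.478 CPM (SD, n = 4), a 2.53-fold rise (log2 fold change 1.34, SE 0.164, edgeR adjusted p = 9.41e-08). Only 3.06% of the genes tested had a larger absolute log2 fold change. These levels rested on 27 to 41 reads per vehicle sample and 57 to 96 reads per IL-1β sample, and the 95% confidence interval of the log2 fold change, 1.00 to 1.67, began at the 2-fold limit. When the test asked for a change significantly above 2-fold (glmTreat), *Traf1* had an adjusted p of 0.184 and no TRAF gene passed.

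*Traf2* (ENSMUSG00000026942.13, chr2:25517982-25546940, minus strand), the RING-containing partner of TRAF1 and the anchor of the cIAP ligases at TNF receptors, rose by a factor just under 2. The vehicle samples measured 21.8, 21.2, 20.7 and 21.5 CPM, and the IL-1β samples 42.1, 42.8, 42.1 and 39.7 CPM. Both groups were tight, with all IL-1β samples far above all vehicle samples. The log2 fold change was 0.97 (SE 0.0510, 95% interval 0.86 to 1.07, edgeR adjusted p = 1.89e-15), a 1.95-fold rise that fell just short of the limit for a DEG. Of the family, *Traf2* had the smallest adjusted p, and 5.44% of all genes tested had a larger absolute log2 fold change.

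*Traf3* (ENSMUSG00000021277.16, chr12:111166370-111267153, plus strand), whose product brings NIK to the TRAF2-cIAP complex for degradation and also serves type I interferon induction, rose by a smaller factor. Its level was 68.7, 66.5, 68.5 and 67.5 CPM in vehicle and 94.6, 90.1, 96.8 and 89.9 CPM with IL-1β. The groups were well apart. The mean rose from 67.8 ± 1.01 CPM to 92.8 ± 3.39 CPM (SD, n = 4), which is 1.37-fold (log2 fold change 0.45, SE 0.0379, edgeR adjusted p = 5.10e-11).

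*Traf5* (ENSMUSG00000026637.13, chr1:191997205-192092559, minus strand), a close relative of TRAF2 that binds receptors such as CD27, CD40 and the lymphotoxin β receptor, was barely expressed. It had 14 to 22 reads per vehicle sample and 5, 21, 24 and 16 reads in the IL-1β samples, or 1.04, 1.28, 1.00 and 1.12 CPM against 0.452, 1.52, 1.43 and 1.14 CPM. IL-1β replicate 1 was the lowest of all 8 samples and IL-1β replicates 2 and 3 were the highest, so the groups overlapped. The log2 fold change was 0.08 (SE 0.279, edgeR adjusted p = 0.858). Its 95% interval ran from -0.49 to 0.65, so that a change of about the size seen for *Traf3* was not excluded in either direction. The sign of the estimate turned when IL-1β replicate 2 (-0.061) or replicate 3 (-0.051) was left out. Of the exon bases of *Traf5*, 4.49% overlapped a gene on the opposite strand and 1.42% one on the same strand (*Gm26879* and *Mir3473c*), and whether reads were counted by strand is not given in the sources used here.

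*Traf6* (ENSMUSG00000027164.8, chr2:101678429-101701669, plus strand), the ubiquitin ligase of the IL-1 receptor pathway itself, did not pass the test. It measured 23.8, 23.9, 25.5 and 25.3 CPM in vehicle and 26.5, 28.1, 25.4 and 26.0 CPM with IL-1β. The lowest IL-1β sample lay below the highest vehicle sample. The log2 fold change was 0.11 (SE 0.0567, edgeR adjusted p = 0.142), and its 95% interval of -0.01 to 0.22 had its upper end at a 1.17-fold rise. A larger absolute log2 fold change was found for 63.1% of the genes tested.

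*Traf4* (ENSMUSG00000017386.10, chr11:78158499-78165589, minus strand), a member linked less to TNF receptors than to cell junctions, migration and TGF-β signaling, was the one TRAF gene that fell. It measured 39.1, 39.9, 44.9 and 44.2 CPM in vehicle and 29.5, 31.9, 33.2 and 33.3 CPM with IL-1β. The highest IL-1β sample was below the lowest vehicle sample. The mean went from 42.0 ± 2.94 CPM to 32.0 ± 1.79 CPM (SD, n = 4), and *Traf4* fell by 0.38 on the log2 scale (SE 0.0544, edgeR adjusted p = 1.28e-06), to 0.767 of the vehicle level.

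*Traf7* (ENSMUSG00000052752.15, chr17:24508562-24527938, minus strand) is the divergent member, with WD40 repeats in place of the TRAF domain, and its product binds the kinase MEKK3. Its level was 76.3, 80.9, 83.4 and 84.1 CPM in vehicle and 84.8, 88.7, 89.3 and 91.8 CPM with IL-1β. The groups were separate, but the lowest IL-1β sample was close to the highest vehicle sample. The rise was 1.09-fold (log2 fold change 0.13, SE 0.0391, edgeR adjusted p = 0.00860). The call was lost without vehicle replicate 1 (log2 fold change 0.10, adjusted p = 0.0554), and 56.9% of the genes tested had a larger absolute log2 fold change. *Caskin1* and *Rab26* overlapped 4.55% of its exon bases on the same strand and 1.87% on the opposite strand.

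**Figure D2:**
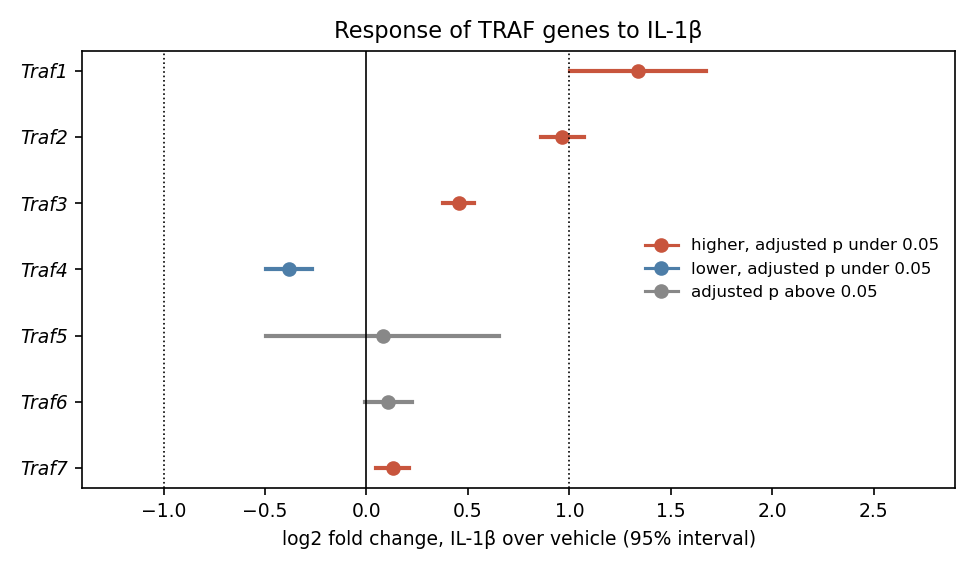
The log2 fold change of each TRAF gene, IL-1β over vehicle (axis in log2 units), with its 95% confidence interval. *Traf1* (1.34) and *Traf2* (0.97) lie highest, *Traf4* (-0.38) is below 0, and the intervals of *Traf5* and *Traf6* include 0.

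Levels were compared between genes per length, as RPKM, the CPM divided by the deposited gene length in kilobases. In vehicle-treated chondrocytes *Traf7* was highest at 13.8 ± 0.600 RPKM, followed by *Traf4* at 12.8 ± 0.894 RPKM (SD, n = 4), and the samples of these 2 genes overlapped. *Traf3* (9.23 ± 0.138 RPKM), *Traf2* (4.18 ± 0.0890 RPKM) and *Traf6* (3.12 ± 0.112 RPKM) followed in that order without overlap. *Traf5* and *Traf1* were lowest and overlapped, at 0.243 ± 0.0265 RPKM and 0.232 ± 0.0508 RPKM. With IL-1β no neighbours in the order by deposited length overlapped: *Traf7* was at 15.1 ± 0.492 RPKM, *Traf3* at 12.6 ± 0.461 RPKM, *Traf4* at 9.71 ± 0.545 RPKM, *Traf2* at 8.17 ± 0.269 RPKM, *Traf6* at 3.36 ± 0.148 RPKM, *Traf1* at 0.581 ± 0.0542 RPKM and *Traf5* at 0.249 ± 0.106 RPKM. *Traf3* thus stood above *Traf4* in the IL-1β samples on the RPKM scale, and below it in vehicle. The levels and this exchange depended on the length used. With the length of the longest coding transcript, *Traf4* stayed above *Traf3* in both groups, at 15.4 against 13.1 CPM per kilobase with IL-1β and 20.2 against 9.60 CPM per kilobase in vehicle. On that length *Traf2* (13.7 CPM per kilobase) stood above *Traf3* with IL-1β, with overlapping samples, and *Traf1* (0.594 CPM per kilobase) above *Traf5* (0.565) in vehicle, also with overlap, while *Traf7* and *Traf4* no longer overlapped in vehicle. The level of *Traf1* with IL-1β was 1.49 CPM per kilobase on that length.

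The summed RPKM of the 7 genes was 41.9 to 44.9 in vehicle and 48.6 to 50.9 with IL-1β. Within that sum the share of *Traf4* went from 29.2% ± 1.04 to 19.5% ± 0.795 and that of *Traf2* from 9.60% ± 0.490 to 16.4% ± 0.627 (SD, n = 4). *Traf3* went from 21.2% to 25.4%, and *Traf1* from 0.530% to 1.17%. *Traf7* had the largest share in both groups, at 31.7% ± 0.564 in vehicle and 30.3% ± 0.745 with IL-1β, and *Traf6* held 7.17% and 6.76%. The shares depended on the length used: with the longest coding transcript *Traf3* went from 13.9% to 16.8%, *Traf1* from 0.858% to 1.91%, *Traf2* from 10.2% to 17.5% and *Traf4* from 29.3% to 19.7%, each in the same direction as with the deposited length.

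**Figure D3:**
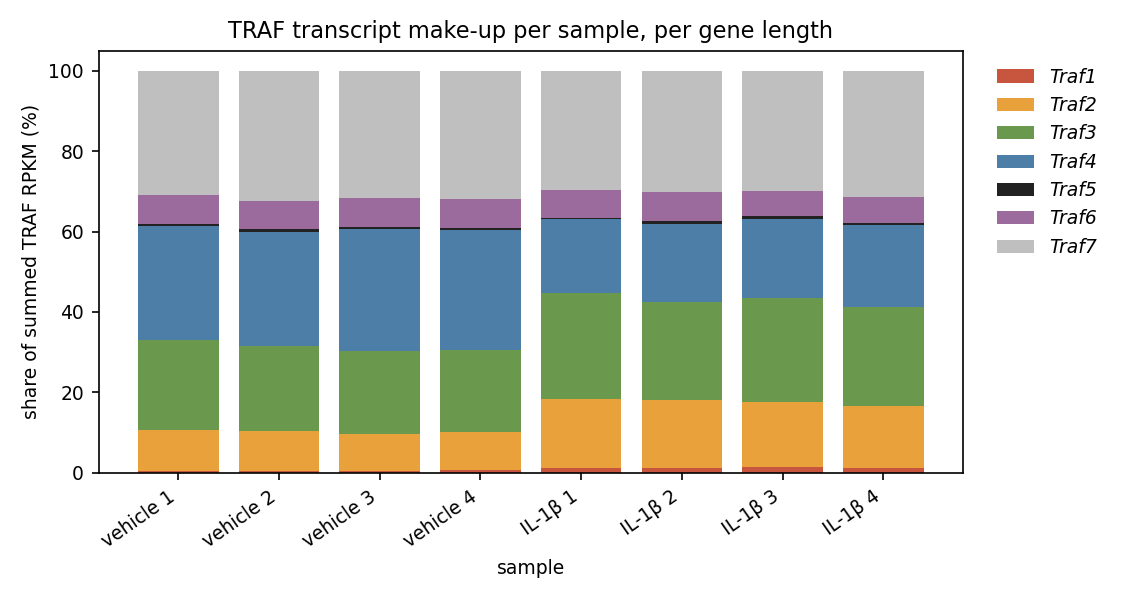
Share of each TRAF gene in the summed RPKM of the family (y axis, percent) in each of the 8 samples. In every IL-1β sample *Traf2* takes a larger share (15.6% to 17.0%) and *Traf4* a smaller one (18.4% to 20.3%) than in any vehicle sample (9.06% to 10.2% and 28.3% to 30.4%).

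Whether 2 TRAF genes responded differently was tested on their log2 ratio within each sample, which does not depend on how the samples were scaled. Of the 21 pairs, 15 shifted between the groups. Each of the 15 had p = 0.0286 in the two-sided exact permutation test, the smallest that 4 samples against 4 allow. The adjusted p in that test, 0.0400 over the 21 pairs, was the same for all 15. It depended on how many pairs reached the smallest p. The pairs share genes, so the 15 are not separate results. Such a share was not computed for pairs of all tested genes. Among single genes tested, 36.8% had groups that did not overlap. The widest shift was that of *Traf1* against *Traf4*, by 1.72 on the log2 scale. The ratio of *Traf2* to *Traf4* rose by 1.36, from a mean log2 ratio of -0.97 in vehicle to 0.38 with IL-1β, so that *Traf2* had fewer reads than *Traf4* in every vehicle sample and more in every IL-1β sample. *Traf2* also moved away from *Traf6* (log2 ratio -0.21 in vehicle, 0.65 with IL-1β) and from *Traf3*, against which it gained 0.51 on the log2 scale. *Traf3* in turn gained 0.33 on *Traf7* and 0.35 on *Traf6*.

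The remaining 6 pairs did not pass. The log2 ratio of *Traf1* to *Traf2* was -3.39 ± 0.287 in vehicle and -3.02 ± 0.105 with IL-1β, a difference of 0.37 (exact permutation test, p = 0.114, adjusted p = 0.150), so the larger rise of *Traf1* was not separable from that of *Traf2*. The log2 ratio of *Traf6* to *Traf7* was -1.72 ± 0.0345 in vehicle and -1.74 ± 0.0865 with IL-1β (SD, n = 4; exact permutation p = 0.686, adjusted p = 0.758). The other 4 pairs set *Traf5* against *Traf3*, *Traf4*, *Traf6* and *Traf7*, with adjusted p-values of 0.212 to 0.943 in the exact permutation test, and the SD of those ratios within the IL-1β group was 0.691 to 0.776.

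**Figure D4:**
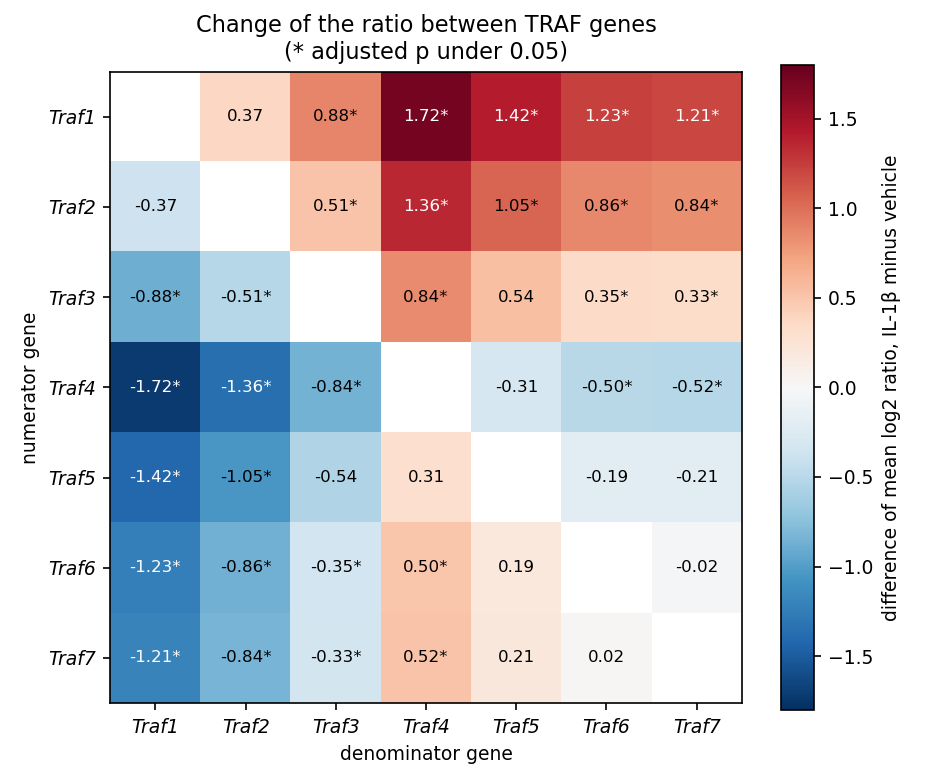
Difference in mean log2 ratio, IL-1β minus vehicle, for each pair of TRAF genes, with the numerator gene in rows and the denominator gene in columns, coloured from blue (negative) to red (positive) in log2 units and starred where the adjusted p was under 0.05, so that each of the 21 pairs appears on both sides of the diagonal. The widest value is 1.72 for *Traf1* against *Traf4*, and *Traf6* against *Traf7* is near 0 at -0.02.

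The study centred on miR-146a-5p, a miRNA for which *Traf6* and *Irak1* are textbook targets, so the pairing sequences in these 2 transcripts are shown beside their levels. The mature miRNA (RefSeq, GRCm38.p6, chr11:43374435-43374456, minus strand) is given 5′ to 3′ with its seed, bases 2 to 8, in capitals. The 4 lines for *Traf6* and the 2 lines for *Irak1* are the matching sites of their 3′ UTRs (GRCm38, longest coding transcript of GENCODE vM21), with the 7 bases that pair with the seed and the A that follows them in capitals.
mmu-miR-146a-5p: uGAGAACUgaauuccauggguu
*Traf6* site at chr2:101697959-101697966: ctctggtgttgAGTTCTCAtttagttgac
*Traf6* site at chr2:101698023-101698030: tggaaggcttaAGTTCTCAagtactccct
*Traf6* site at chr2:101698835-101698842: ctttggagtctAGTTCTCAgggagcccta
*Traf6* site at chr2:101701359-101701366: tttgctactgcAGTTCTCAaacatggaag
*Irak1* site at chrX:74015393-74015400: tcagaggtcaaAGTTCTCAtgcttggaag
*Irak1* site at chrX:74015377-74015384: tcatgcttggaAGTTCTCAtagtgtgcaa

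The 3′ UTR of *Traf6*, 4170 bases long, thus held 4 such sites, and that of *Irak1*, 1526 bases long, held 2. The letters AGTTCTC were found in the 3′ UTR of 1497 of 11916 tested genes with one (12.6%), with at least 2 matches in 198 genes (1.66%) and at least 3 in 41 genes (0.344%). The same letters followed by A, the form of all sites shown, were found in 554 genes (4.65%). The median 3′ UTR of those genes was 1196 bases long. No match was present in the 3′ UTR of *Traf1*, *Traf2*, *Traf3*, *Traf4* or *Traf7*, of 516 to 5088 bases. *Traf5* was not searched, as no usable 3′ UTR was obtained from its longest coding transcript, and its other transcripts were not searched. A match is a description of these letters and not a site in use, and the miRNA itself was not analysed here. *Irak1*, the kinase that hands the signal to TRAF6, measured 79.4, 86.4, 84.8 and 85.5 CPM in vehicle and 89.9, 95.5, 98.6 and 93.4 CPM with IL-1β. All IL-1β samples lay above all vehicle samples (log2 fold change 0.17, SE 0.0386, edgeR adjusted p = 0.000664), and the mean of neither *Irak1* nor *Traf6* was lower with IL-1β. The paper reported that the miRNA rose with IL-1β. Whether it acted on either transcript or its protein was not tested.

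Promoters of the 7 genes, from 250 bases before to 50 bases after the RefSeq start (GRCm38.p6), were searched on both strands for the NF-κB (κB) consensus, the binding sequence of the transcription factor below IL-1 and TNF receptors. *Traf3* had 1 match, at chr12:111166360-111166369, ending next to the annotated start. It is shown with its surroundings on the plus strand, the match in capitals.
*Traf3* promoter: ggcggcccgcGGGGATTTCCagcgcgcgag

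The other 6 promoters had no match in this window, which says nothing of sites elsewhere. The consensus was present in 4.51% of all 32851 promoters of that length and in 5.19% of the 12732 promoters of tested genes. The promoters differed widely in base composition, with a GC content of 84.0% and 59 CpG dinucleotides for *Traf3* and of 48.7% and 4 CpG dinucleotides for *Traf1*, while the median of tested genes was 61.0%.

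Genes that work with the TRAF proteins were followed in 4 lists of 59 genes, of which 50 could be tested. Of these, 22 rose and 6 fell, or 56.0% of the genes tested, against 40.2% of all genes. The 10 DEGs among them were 20% against 5.21%, and all were higher with IL-1β. Of the genes that rose, *Tnfrsf9*, *Cd40*, *Peli3* and *Tifa* passed the filter on low counts through the IL-1β samples, in which they were higher, so that their calls and the direction of these counts are not independent of the filter. Where a CPM above 1 was asked in all 8 samples, these 4 genes were not tested, 24 partner genes changed and 7 were DEGs. Under that filter 5444 of all 12964 genes tested changed and 511 were DEGs. *Tnfrsf4*, *Ngfr* and *Traip*, not called in the main test, had a CPM below 1 in IL-1β replicate 2 and were not tested there either. The share of partner genes under that filter was not computed. In the main test the median log2 fold change was 0.09 for the 50 genes and -0.00 for all genes tested.

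Of 19 receptors that bind TRAF proteins, 12 were tested, of which 3 rose and 2 fell, with a median log2 fold change of -0.01. The 5 changed genes were 41.7% of those tested, near the 40.2% of all genes, and the shares over all genes were 20.4% higher and 19.8% lower. *Tnfrsf9*, which encodes the costimulatory receptor 4-1BB, a TRAF1 and TRAF2 binder, rose from 0.462 ± 0.108 CPM to 3.17 ± 0.620 CPM (SD, n = 4; log2 fold change 2.78, SE 0.257, edgeR adjusted p = 4.43e-10). *Tnfrsf1b*, the TNF receptor 2 gene, measured 17.7 to 18.8 CPM in vehicle and 56.1 to 61.7 CPM with IL-1β (log2 fold change 1.68, SE 0.0498, edgeR adjusted p = 2.00e-21). *Cd40*, a receptor of the TNF family, had 0.885 ± 0.301 CPM in vehicle and 2.61 ± 0.811 CPM with IL-1β (SD, n = 4; log2 fold change 1.56, SE 0.257, edgeR adjusted p = 1.19e-05). All 3 met the rule for a DEG, but *Tnfrsf9* had a CPM above 1 in no vehicle sample and *Cd40* in 1, so both were tested because they were higher with IL-1β. With a CPM above 1 asked in all 8 samples, *Tnfrsf9* and *Cd40*, called in the main test, were not tested, nor were *Tnfrsf4* and *Ngfr*. Of the receptors left, 3 changed in place of 5, while 5444 of all 12964 genes tested changed. The receptors that fell were *Il17ra* (log2 fold change -0.28), the IL-17 receptor subunit, and *Tnfrsf12a* (-0.15), the TWEAK receptor.

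The route from the IL-1 receptor over TRAF6 to TAK1 had 17 genes, all tested, of which 7 rose and 1 fell (median log2 fold change 0.01). These were 47.1% of the list, against 40.2% of all genes. The DEGs were *Peli3*, a Pellino ubiquitin ligase that acts on IRAK proteins, which rose from 0.810 to 2.89 CPM (log2 fold change 1.84, SE 0.220, edgeR adjusted p = 5.80e-08), and *Il1rap*, the accessory chain of the IL-1 receptor, which rose from 5.19 to 11.6 CPM (log2 fold change 1.15, SE 0.111, edgeR adjusted p = 9.76e-10). *Peli3* had a CPM above 1 in 1 vehicle sample and in all 4 IL-1β samples, through which it passed the filter, and it was not tested where a CPM above 1 was asked in all 8. *Irak2* (log2 fold change 0.84), *Tifa* (0.75), *Sqstm1* (0.66), *Irak1* (0.17) and *Myd88* (0.12) also rose, short of 2-fold. *Tifa* passed the filter through the IL-1β samples. The receptor chain and the kinase at the 2 ends of the route did not pass the test. The log2 fold change of *Il1r1*, the receptor chain that binds IL-1, was -0.08 (edgeR adjusted p = 0.262), and that of *Map3k7*, which encodes TAK1, was 0.01 (edgeR adjusted p = 0.869). *Ube2n*, the ubiquitin-conjugating partner of TRAF6, was the gene that fell, by 0.25 on the log2 scale.

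Among the 9 genes of the TRAF2-TRAF3 complex and the non-canonical branch of NF-κB, 6 rose and 1 fell (77.8% against 40.2% of all genes), with a median log2 fold change of 0.40. *Relb*, a transcription factor of that branch, rose from 31.1 ± 0.744 CPM to 67.9 ± 1.86 CPM (SD, n = 4; log2 fold change 1.13, SE 0.0423, edgeR adjusted p = 5.28e-19), and *Map3k5*, the stress kinase ASK1 that TRAF2 binds, from 29.8 to 64.1 CPM (log2 fold change 1.10). *Nfkb2* (log2 fold change 0.87), the partner of RelB, and *Birc3* (0.83), which encodes cIAP2, also rose, short of 2-fold. *Map3k14*, the gene of NIK, had a log2 fold change of 0.03 (edgeR adjusted p = 0.808), and *Birc2*, which encodes cIAP1, one of 0.07 (adjusted p = 0.553).

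Of the 14 regulators and other binding partners, 12 were tested, of which 6 rose and 2 fell (66.7% against 40.2% of all genes; median log2 fold change 0.21). *Ikbke*, the kinase IKKε, which works with TRAF3 and TANK, rose from 6.69 ± 0.690 CPM to 32.9 ± 2.16 CPM (SD, n = 4; log2 fold change 2.29, SE 0.0803, edgeR adjusted p = 1.10e-19). *Tnfaip3*, which encodes A20, a ubiquitin-editing inhibitor of TRAF signaling, rose from 3.06 to 8.21 CPM (log2 fold change 1.42), and *Traf3ip2*, the IL-17 receptor adaptor Act1, from 32.1 to 70.0 CPM (log2 fold change 1.13). *Tank*, *Tbk1* and the deubiquitinase gene *Cyld* rose by less, with log2 fold changes of 0.39, 0.37 and 0.30. *Trafd1*, a negative regulator of TRAF6 and TRAF3 signaling, fell by 0.36 on the log2 scale, and *Map3k3*, the gene of MEKK3, by 0.10.

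**Figure D5:**
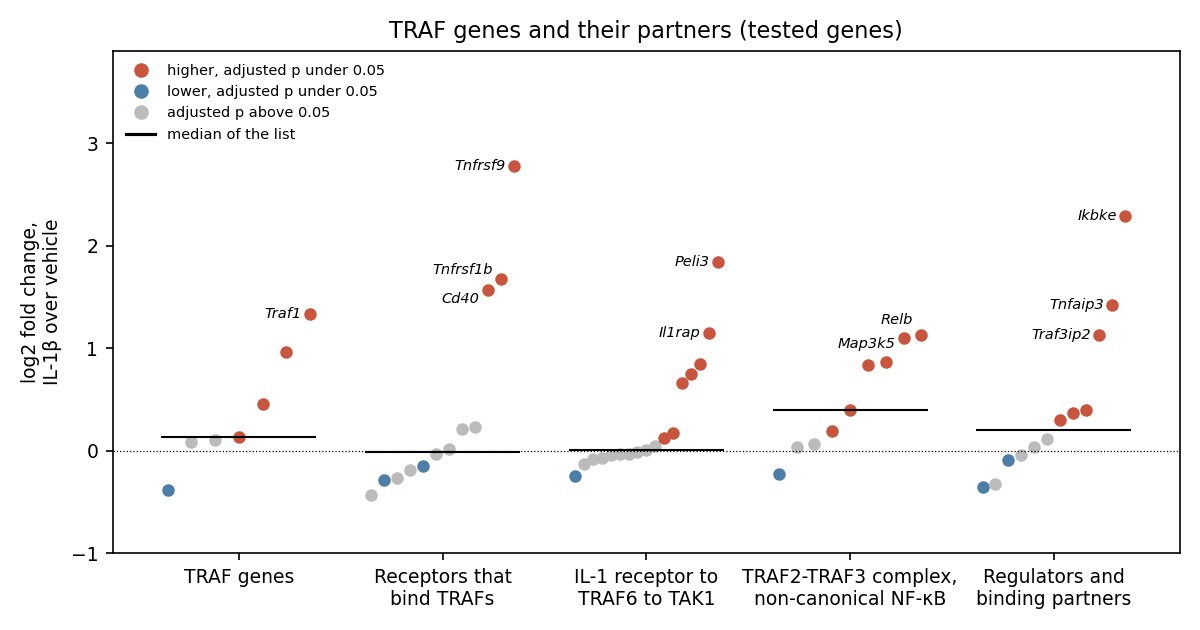
The log2 fold change (y axis, IL-1β over vehicle) of each tested gene among the 7 TRAF genes and the 4 partner lists, coloured by direction where the adjusted p was under 0.05, with the median of each list as a line and the DEGs named. All 11 named DEGs are above 0, while the medians lie between -0.01 and 0.40.

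The genes whose profile over the 8 samples was nearest to that of *Traf1*, by the root-mean-square difference of log2 CPM centred on each gene's mean, were *Map3k8* (0.123), *Abcg1* (0.142), *Adam12* (0.144), *Gprc5b* (0.145) and *Sdk1* (0.156). *Map3k8* encodes the kinase TPL2 of the NF-κB and ERK pathways and was at 6.02 ± 0.622 CPM in vehicle and 15.2 ± 0.771 CPM with IL-1β (SD, n = 4). *Abcg1* encodes a cholesterol transporter, *Adam12* a metalloproteinase and *Sdk1* an adhesion molecule. Within the family *Traf2* was nearest to *Traf1* (0.242), and 123 of 14403 genes lay nearer.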

How the data were processed

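RNA-Seq counts of 8 samples were analysed. The authors trimmed reads with cutadapt, mapped them with STAR to the mm10 genome, annotated by GENCODE vM20 (STAR version 2.4.2a in the submitters' processing notes, another in the methods) and counted them with featureCounts. The deposited values were whole-number counts per gene symbol, not normalized, and whether they precede or follow the RUVseq batch correction that the methods name is not given in the sources used here. A deposited column of gene lengths in bases served for RPKM. All 8 count columns were used. The treatment label gave each sample its group.

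After TMM scaling, the quasi-likelihood test of edgeR 4.0.16 (R 4.3.3, with limma 3.58.1) was run on the 14404 genes that passed a CPM of 1 in 4 or more samples, and treatment was the model's one term. P-values were adjusted by Benjamini-Hochberg over all of them. Pair ratios used log2(count + 0.5) and exact permutation tests (Python 3.11.15, scipy 1.17.1). At these depths 3 counts correspond to 0.174 to 0.271 CPM, a limit that covers counting error only. The code was tested on simulated data.

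Gene positions and 3′ UTRs came from GENCODE vM21 (GRCm38), in which the summed exon length of all 7 TRAF genes equalled the deposited length. Promoters and the miRNA came from RefSeq (GRCm38.p6), which held all 7 promoters. Protein sequences were not used here.

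Named were the 7 TRAF genes, the DEGs of the partner lists, *Irak1* and the 5 genes nearest to *Traf1*. Other list members and cell type markers given with values were named after these were seen. The members and lists were chosen with earlier results of these data known. The alternatives were DESeq2 1.42.0, DESeq2 size factors or total library size in place of TMM, no filter or a CPM above 1 in all 8 samples, the replicate number as a block, 1 factor of unwanted variation (RUVs), stricter fold limits (glmTreat, or a log2 fold change beyond 2), a pseudocount of 5 for pair ratios, and each sample left out in turn. The length of the longest coding transcript was an alternative chosen after seeing the data.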

Additional observations from a re-analysis of the deposited data

Results flagged for a closer look

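A sample that stood far from the other 3 of its group was looked for in 48 groups of 4 samples, by the gap to its nearest neighbour over the range of the group, at Dixon's 95% limit. Chance alone gives about 1 in 20, or 2.4 groups. Of the 14 groups of the 7 TRAF genes, 0 were found, and of the others 4 were. *Tnfrsf9* was at 2.24 CPM in IL-1β replicate 2 and at 3.42 to 3.58 CPM in the rest of the IL-1β group. *Cd40* was at 1.33 CPM in vehicle replicate 2 and at 0.695 to 0.787 CPM in the rest of the vehicle group. *Traf3ip2* was at 35.3 CPM in vehicle replicate 3 and at 30.6 to 31.3 CPM in the others. *Gprc5b* was at 2.82 CPM in IL-1β replicate 2 and at 2.21 to 2.26 CPM in the others. When single samples were omitted, the log2 fold changes of *Cd40*, *Traf3ip2* and *Gprc5b* were 1.40 to 1.85, 1.10 to 1.17 and 1.17 to 1.45, with an edgeR adjusted p of at most 0.000377. *Gprc5b* was at 0.811 to 1.38 CPM in vehicle and, like *Cd40*, passed the filter on low counts through the IL-1β samples. The calls of these genes are therefore not independent of the filter, and neither was tested where a CPM above 1 was asked in all 8 samples. *Tnfrsf9* had 2.65 to 2.92 with a vehicle sample left out and no value with an IL-1β sample left out, since its CPM was above 1 in the 4 IL-1β samples alone and it then failed the filter.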

How the results depend on the processing

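*Traf1*, *Traf2*, *Traf3* and *Traf4* kept their direction and their call under all 15 alternatives run for them, with log2 fold changes of at least 1.26, 0.95 to 0.99, 0.43 to 0.47 and -0.42 to -0.35. *Traf6* stayed short of the threshold (0.08 to 0.13, edgeR or DESeq2 adjusted p of 0.104 to 0.342). With each sample left out in turn, *Traf7* had 0.10 to 0.15, with the call lost without vehicle replicate 1 (0.10, edgeR adjusted p = 0.0554), and *Traf5* had -0.061 to 0.29, reversed without IL-1β replicate 2 (-0.061) or 3 (-0.051); the adjusted p of *Traf5* was 0.405 to 0.945 throughout, and it had no value where a CPM above 1 was asked in all 8 samples. The TRAF genes changed numbered 4 to 5 over these settings. TRAF DEGs numbered 0 under glmTreat against a log2 fold change of 1, and 0 with a log2 fold change beyond 2. Of the receptors, 3 in place of 5 changed where a CPM above 1 was asked in all 8 samples. *Tnfrsf9*, *Cd40*, *Tnfrsf4* and *Ngfr* were not tested there. Fewer genes were tested under that filter, 12964 in all, of which 5444 changed. The partner genes changed numbered 24 to 28 and the partner DEGs 7 to 11. Of all genes, from 4937 of 14404 (DESeq2) to 6114 of 14404 (RUVs) changed. DEGs of all genes were fewest with a CPM above 1 in all 8 samples, at 511 of 12964. Without a filter 1206 of 32379 genes were DEGs in all, against 751 of 14404 in the main test. No scaling moved the median log2 fold change of all genes beyond -0.01.

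Samples with the same replicate number did not deviate together (r = -0.07 to 0.03 across genes, which are not independent replicates), no sample correlated best with its own number, and the numbers were therefore not taken as pairs. With the number as a replicate block, 5 TRAF genes changed, 1 was a DEG and 27 partner genes changed, with log2 fold changes of 1.33 for *Traf1*, 0.97 for *Traf2*, -0.39 for *Traf4* and 0.13 for *Traf7*. For the pair ratios, an exact test by sign flips over 4 pairs cannot go below p = 0.125 and an exact permutation of 3 samples against 4 not below 0.0571, so that neither could pass the threshold. The pairs whose groups did not overlap numbered 15 to 16 with a sample left out.

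Depth limits what can be said of *Traf5* and, to a lesser degree, *Traf1*, *Tnfrsf9*, *Tifa*, *Peli3*, *Cd40* and *Gprc5b*. Their lowest samples had 5, 27, 6, 7, 10, 11 and 12 reads, in that order.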
